A study of Canis lupus familiaris with 36 samples.

Results

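CD70 and its receptor CD27 were measured as 2 of the 44 immune genes on a custom NanoString nCounter panel of 48 genes in canine oral squamous cell carcinoma (OSCC). Both were taken by name, with earlier results of these data known. The panel was run on 36 samples from pet dogs with spontaneous disease, 34 labelled tumor and 2 labelled mucosal stroma, which the study used as normal oral mucosa. According to the series description these came from 33 dogs, and 1 dog gave both a tumor and a mucosa sample, so that some samples share a dog and the 34 tumors came from at most 33 dogs. The labels do not show which ones, nor do they give age, sex, breed or treatment, or which RNA came from fixed and which from frozen tissue, so p-values measure the spread between samples. The tumors are naturally occurring, and the panel holds no keratinocyte or fibroblast marker that could place a transcript in the tumor cells or in the stroma. In bulk RNA, fewer cells of a type and less RNA per cell cannot be told apart.

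CD70 is a membrane ligand of the tumor necrosis factor (TNF) superfamily. Antigen-presenting cells and activated T and B cells show it briefly, and some carcinomas carry it without an immune stimulus. CD27 is its receptor, a costimulatory protein of the TNF receptor superfamily found on resting T cells and on memory B cells, and binding of CD70 sends a survival and activation signal into the T cell. CD3e, a chain of the T cell receptor complex, is the general T cell marker of the panel. In the RefSeq annotation of the dog genome UU_Cfam_GSD_1.0, CD70 lies between the TNF superfamily genes TNFSF14 and TNFSF9, and CD27 lies between LTBR and TAPBPL.

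Summed over all 48 genes, tumors gave between 27092 and 665587 counts (median 224716), and the mucosa samples of patients 8 and 9 gave 117883 and 149876. The positive-control probes B and C divided the samples, since their ratio (B over C) fell into separate ranges, 2.59 to 2.85 in 9 samples (7 tumors and both mucosa samples) and 1.54 to 1.77 in the other 27 tumors. The labels give no reason for this split, so values within it are given beside the pooled ones as those of the high and the low control ratio. The tumors of patients 33 and 34 had nearly the same profile and the highest CD3e and CD27 of all samples, and correlations are therefore also given without them. Of the T cell markers on the panel, CD3e, CD8a and CD28 were measured in every tumor, and CD3e had a mean log2 level of 10.28 ± 1.39 (SD, n = 34).

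CD70 was higher in every tumor than in both mucosa samples. Its log2 normalized signal was 4.66 in the mucosa of patient 8 and 4.91 in that of patient 9. In tumors it ran from 6.54 (patient 1) through a median of 8.36 to 10.38 (patient 17). The groups did not overlap, with all 34 tumors above both mucosa values. The share of all immune genes without such an overlap is not given here, so non-overlap cannot be called particular to CD70. The tumor mean was 8.39 ± 1.04 (SD, n = 34), and the log2 difference of the means was 3.60 (standard error 0.73, limma adjusted p = 0.00071), a 12.1-fold difference. It was the fourth largest difference among the immune genes, of which limma called 31.8% higher in tumors. The exact permutation test over the 630 ways to choose the mucosa samples gave p = 0.00159 (two-sided), the smallest p it can give. Among samples of the high control ratio alone, all 7 tumors lay above both mucosa samples, and CD70 differed by 3.25 (two-sided exact permutation test, p = 0.0278, the smallest that 36 splits allow).

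The mucosa level of CD70 was near the detection limit of the assay. It rested on 21 counts in the mucosa of patient 8, with an exact 95% Poisson interval of 13.0 to 32.1, and on 28 counts in that of patient 9, with an interval of 18.6 to 40.5. The negative-control background (mean plus 2 SD) of these samples was 16.4 and 19.0 counts, so both values lay just above background and both intervals reach it. The tumors held 39 to 1528 CD70 counts with a median of 301, and all 34 lay above their background. With the mean of the negative controls subtracted, a setting chosen after the data were seen, the log2 difference was 4.14. The immune genes as a whole also lay higher in tumors, their median by 1.21 on the log2 scale, and relative to that median the difference of CD70 was 2.39 (limma adjusted p = 0.0429).

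CD27 was higher on average in tumors but did not pass the test. Its log2 level was 6.42 in the mucosa of patient 8 and 5.06 in that of patient 9. In tumors it ran from 5.17 (patient 15) through a median of 7.66 to 11.29 (patients 33 and 34), and the next tumor, that of patient 26, stood at 9.61. The groups overlapped, since 30 tumors lay above both mucosa samples and 4 lay between them. The tumor mean was 7.86 ± 1.32 (SD, n = 34), and the log2 difference was 2.12 (standard error 0.92, limma adjusted p = 0.0675). Taken alone, CD27 gave p = 0.0413 in the exact permutation test over 630 splits (two-sided). The difference depended on which mucosa sample served as the control, at 2.80 (limma adjusted p = 0.0966) without that of patient 8 and 1.44 (limma adjusted p = 0.437) without that of patient 9. Among samples of the high control ratio CD27 differed by 1.63 (two-sided exact permutation test, p = 0.0556), and relative to the immune median it was 0.91 (limma adjusted p = 0.235).

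**Figure D1:**
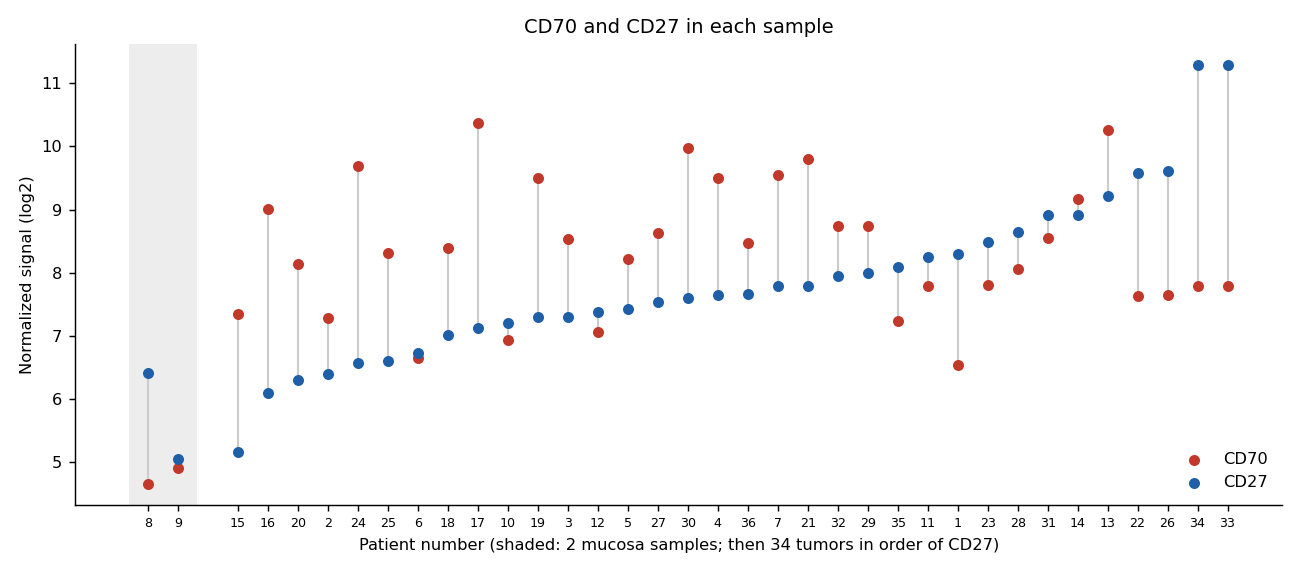
Log2 normalized signal of CD70 (red) and CD27 (blue) in each sample, with both mucosa samples shaded at the left and the 34 tumors ordered by CD27. A grey line joins the values of a sample. The CD70 points lie above both mucosa CD70 points in all 34 tumors and scatter along the order of CD27 (r = -0.05), while CD27 rises to 11.29 in patients 33 and 34. The probes differ in efficiency, so the height of a red point over a blue one has no meaning across genes.

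**Figure D2:**
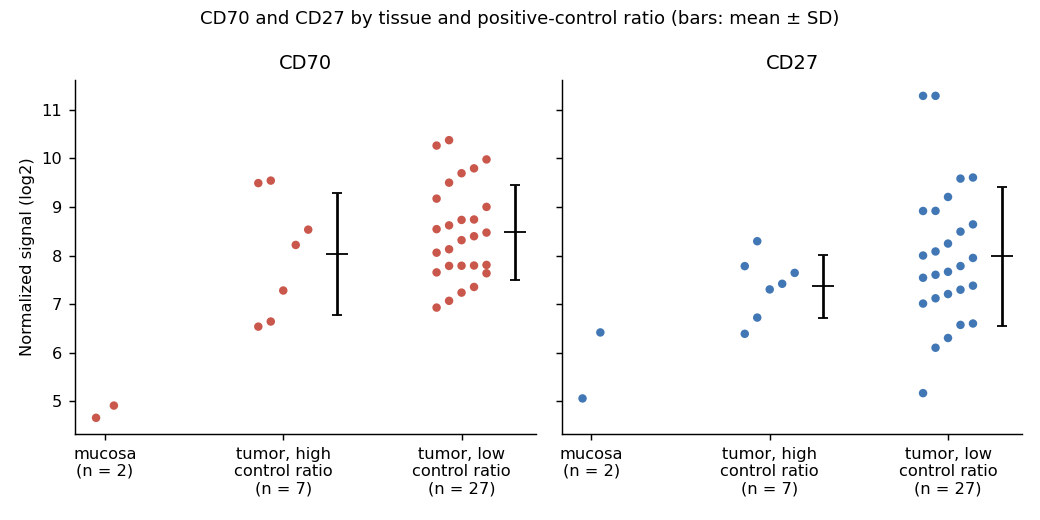
Log2 normalized signal of CD70 and CD27 in mucosa (n = 2), in tumors of the high control ratio (n = 7) and in tumors of the low control ratio (n = 27), 1 point per sample, with bars for the mean ± SD. CD70 points of both tumor groups lie above the mucosa points, and the CD27 points overlap them.

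The spread among tumors was wide for both genes. CD27 spanned 69.6-fold from the lowest to the highest tumor and its SD ranked eighth among the 44 immune genes. CD70 spanned 14.3-fold and its SD ranked eighteenth. The counting error of a single value had a median of 0.115 for CD27 and 0.083 for CD70 on the log2 scale, which covers neither technical nor biological variation between samples. The tumors at the top of each gene were different ones. The tumor of patient 17 had the highest CD70, at 10.38, with CD27 at 7.12. The tumors of patients 33 and 34 had the highest CD27 with CD70 at 7.79 in each, below the CD70 median of 8.36. The tumor of patient 13 was high in both, with CD70 at 10.27 and CD27 at 9.21.

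Of the 5 other TNF superfamily genes on the panel, both receptors passed as higher in tumors and the 3 ligands did not pass. The share called higher over all 44 immune genes was 31.8%. In the pair of CD70 and CD27 the ligand passed and the receptor did not. OX40, a costimulatory receptor of activated T cells, was higher by 2.30 (standard error 0.64, limma adjusted p = 0.00558). CD40, the receptor for T cell help on B cells and dendritic cells, was higher by 1.84 (standard error 0.61, limma adjusted p = 0.0174). The 3 ligands, TNF, TNFSF10 (TRAIL, which can trigger cell death) and TNFSF14 (LIGHT, a costimulatory ligand), differed by 0.41, -0.21 and 0.42. On the equal-median scale neither receptor passed, at 1.09 for OX40 and 0.63 for CD40, and all 3 ligands lay lower in tumors without passing, at -0.80, -1.42 and -0.79. Neither receptor passed when a mucosa sample was left out (limma adjusted p from 0.0543 to 0.218). CD3e itself differed by 2.36 (standard error 0.97, limma adjusted p = 0.0535), and none of the 3 T cell identity genes passed. Among genes of T cell function the cytolytic genes GZMB and PRF1 rose and GZMA did not pass, where 31.8% of all immune genes were called higher. Of the inhibitory or regulatory genes 4 of 5 rose (PD-1, CTLA4, LAG3 and FOXP3, not IL10). On the equal-median scale GZMB, PRF1 and PD-1 of these still passed. With values below background raised to it, PD-1 differed by 3.05 (limma adjusted p = 0.0163), against 3.88 before. PRF1 then differed by 2.66 (limma adjusted p = 0.0158), against 2.78 before. The calls of these 6 genes depended on the mucosa samples. Without that of patient 8 CTLA4 alone of these 6 passed (limma adjusted p = 0.0401), and without that of patient 9 GZMB (limma adjusted p = 0.0307) and PD-1 (limma adjusted p = 0.0431) alone passed. The difference of CTLA4 was 3.41 without the former and 1.06 without the latter.

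No relation between the ligand and its receptor was detected across tumors. Over the 34 tumors Pearson r between CD70 and CD27 was -0.05 (95% interval -0.38 to 0.29, permutation test, two-sided, p = 0.774, adjusted p = 0.859 over 946 gene pairs) and Spearman rho was -0.05 (permutation p = 0.763, adjusted p = 0.87). Split at both medians, 8 tumors were high in both genes, 8 were low in both, 9 were high in CD70 alone and 9 in CD27 alone. Without the 2 tumors farthest from the median of CD27, those of patients 33 and 34, r was 0.06. It was 0.26 in the 7 tumors of the high control ratio and -0.14 in the 27 of the low ratio. The interval leaves room for a weak relation in either direction, and rescaling each sample to an equal immune median gave r = -0.34 (permutation test, adjusted p = 0.164). That rescaling lowered the median r over all 946 pairs from 0.20 to 0.004.

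CD27 followed CD3e closely. Pearson r was 0.95 (95% interval 0.90 to 0.97, permutation test, two-sided, p = 1e-05, the smallest that 100000 permutations can give, adjusted p = 0.000139 over 946 pairs), and Spearman rho was 0.90 (permutation p = 1e-05, adjusted p = 0.000193). CD27 rose by 0.90 per log2 unit of CD3e (standard error 0.05, n = 34), and CD3e accounted for 90.0% of the variance of CD27. Without the tumors of patients 33 and 34, which were also the 2 farthest from the CD3e median, r was 0.91. It was 0.97 among the 27 tumors of the low control ratio and 0.91 among the 7 of the high ratio (exact permutation test, p = 0.00536, adjusted p = 0.203). After rescaling to equal immune medians r was 0.86 (permutation test, adjusted p = 0.000631). The mucosa samples were left out of every correlation.

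CD70 showed no such relation on the deposited scale. Pearson r between CD70 and CD3e was -0.12 (95% interval -0.44 to 0.23, permutation test, two-sided, p = 0.506, adjusted p = 0.661) and Spearman rho was -0.13 (permutation p = 0.463, adjusted p = 0.65). Without the tumors of patients 33 and 34 r was -0.02, and it was 0.11 in the high and -0.26 in the low control-ratio group. The slope was -0.09 per log2 unit of CD3e (standard error 0.13, n = 34). This result depended on the scaling, because with each sample rescaled to an equal immune median r was -0.47 (permutation test, adjusted p = 0.0327). After that rescaling 76 of all 946 pairs had a called negative r, against 11 before. The sign of the rescaled r of CD70 with CD3e cannot be read apart from this. The correlation of CD27 with CD3e exceeded that of CD70 with CD3e by 1.07 (permutation test swapping the genes within tumors, two-sided, p = 2e-05). Within the low control-ratio group that difference was 1.23 (permutation p = 1e-05), and within the 7 tumors of the high ratio it was 0.80 (permutation p = 0.25).

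**Figure D3:**
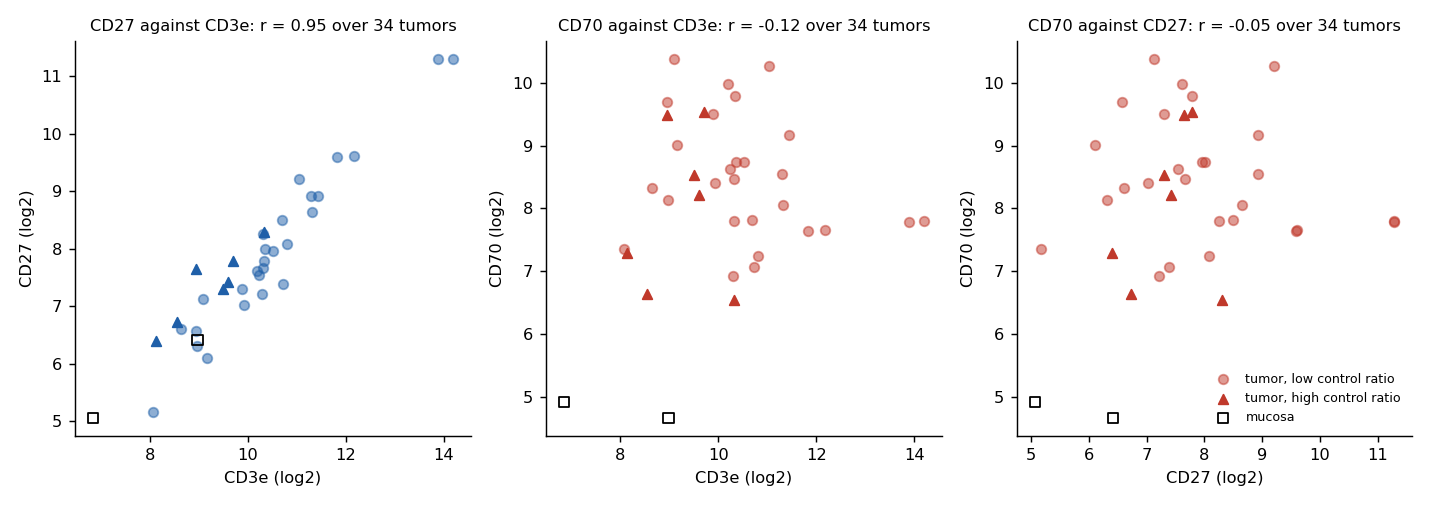
CD27 against CD3e, CD70 against CD3e and CD70 against CD27, all as log2 normalized signal, with circles for tumors of the low control ratio, triangles for tumors of the high control ratio and open squares for mucosa. CD27 and CD3e lie along a line (r = 0.95 over 34 tumors), while CD70 scatters at every level of CD3e (r = -0.12) and of CD27 (r = -0.05). The 2 points at the far right of each panel are the tumors of patients 33 and 34.

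CD27 was one of the most connected genes on the panel and CD70 one of the least. CD27 had a positive correlation with 22 of the 43 other immune genes at an adjusted p below 0.05 and a negative one with 0 of 43 (26 of either sign at an unadjusted permutation p under 0.05). Over all 946 pairs 29.6% were positive by this rule and 1.16% negative, and the median gene had 14 positive partners. Only 4 genes had more than CD27. CD70 had 0 positive partners and 1 negative one (2 genes of either sign at an unadjusted permutation p under 0.05), and 1 other gene also had 0. Its largest r, 0.24, was lower than the largest r of any other immune gene. After rescaling to equal immune medians the split of these calls was 6 positive and 11 negative for CD27, and 2 positive (ICOSLG and KDM6B) and 2 negative (CD3e and CD28) for CD70, against 83 positive and 76 negative over all pairs.

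After CD3e, the genes closest to CD27 were those of T cells. CD28, a costimulatory receptor of T cells, had r = 0.90. ICOS, an inducible costimulatory receptor, and CD8a, the cytotoxic T cell coreceptor, each had r = 0.86. The gene named TBX on the panel had r = 0.85, and PRF1, the pore-forming perforin of cytotoxic lymphocytes, had r = 0.83. All 5 passed the test over 946 pairs (permutation test, adjusted p = 0.000139 for each), and all 5 also passed on the equal-median scale, where r ran from 0.52 to 0.69. At the other end stood IL8, a neutrophil chemokine, at -0.31 and KDM6B, a histone demethylase, at -0.28, and neither passed. Without the 2 tumors farthest from the IL8 median, the r of IL8 was -0.47 (permutation test, adjusted p = 0.0273). IL8 did not pass without the 2 tumors of highest CD27 (r = -0.17, permutation adjusted p = 0.569) or by Spearman rho (-0.30, permutation adjusted p = 0.215). Nor did it pass on the equal-median scale (r = -0.43, permutation adjusted p = 0.0582) or in the low control-ratio group (r = -0.22, permutation adjusted p = 0.432).

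CD27 had a called positive r with 22 of its 43 partners, beside 29.6% of all 946 pairs. By gene group, CD27 correlated positively with 3 of 3 T cell identity genes (median r 0.90), with 3 of 3 cytolytic genes (median r 0.66) and with 5 of 5 inhibitory or regulatory genes (median r 0.69). These last were PD-1, CTLA4 and LAG3, which are checkpoint receptors, FOXP3, the regulatory T cell factor, and IL10, an inhibitory cytokine, which did not pass without the tumors of patients 33 and 34 (r = 0.35). Of the other costimulation genes CD28, which was also counted as a T cell identity gene, and ICOS passed. ICOSLG, the ligand of ICOS, had r = 0.28 and did not. Neither the 4 myeloid and chemokine genes (median r 0.12) nor the 2 interferon genes IFNγ and MX1 (median r 0.33) passed, although CXCL2, a neutrophil chemokine, did without those tumors (r = 0.45, permutation test, adjusted p = 0.0458). CXCL2 did not pass without the 2 tumors farthest from its own median (r = 0.40, permutation adjusted p = 0.0805) or on the equal-median scale (r = 0.13, permutation adjusted p = 0.664). Of the markers of other cells, Pax5 of B cells passed at r = 0.45, which was 0.18 without the tumors of patients 33 and 34. CD40, which B cells share with dendritic cells, passed at r = 0.67. Its r was 0.57 without those tumors (permutation test, adjusted p = 0.00501) and -0.01 on the equal-median scale. NCR1 of natural killer cells, CLEC4C of plasmacytoid dendritic cells and SELP of platelets and endothelium did not pass. On the equal-median scale 3 of 3 T cell identity genes still passed, but 1 of 3 cytolytic genes (PRF1) and 0 of 5 inhibitory or regulatory genes did, and IL10 had a called negative r of -0.56 (permutation test, adjusted p = 0.01). IL10 had r = 0.50 with CD27 on the deposited scale. The rescaling moved all pairs, with 76 negative calls against 11 and a median r of 0.004, so the sign for IL10 cannot be read apart from it. For comparison, on the deposited scale the median r over all 946 pairs was 0.20, and that of CD27 over its 43 partners was 0.45.

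Within the TNF superfamily TNFSF10 was the only called partner that the 2 genes shared, with opposite sign. The difference between their correlations was not tested there. CD27 correlated positively with CD40 (r = 0.67), TNFSF14 (r = 0.57), TNFSF10 (r = 0.51) and TNF (r = 0.49), but not with OX40 (r = -0.03). The relations with TNFSF14 and TNF rested on the tumors of patients 33 and 34, without which r was 0.10 and 0.24 and neither passed, while CD40 and TNFSF10 did. None of the 4 passed on the equal-median scale. CD70 had no positive relation in this family, with r of -0.01 for CD40, -0.04 for OX40, -0.11 for TNFSF14 and -0.27 for TNF. TNFSF10 was its single called partner, at r = -0.46 (95% interval -0.69 to -0.14, permutation test, adjusted p = 0.0255). That call did not stand by Spearman rho (-0.36, permutation adjusted p = 0.121), without the tumors of patients 33 and 34 (r = -0.44, permutation adjusted p = 0.0517) or on the equal-median scale (r = -0.25, permutation adjusted p = 0.334).

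The highest correlations of CD70 were with IL12, a cytokine of antigen-presenting cells (r = 0.24), ICOSLG (r = 0.23), KDM6B (r = 0.19), GATA3, a T cell transcription factor (r = 0.11), and CD8a (r = 0.07). None passed the test. The lowest after TNFSF10 was CD274, the gene of the checkpoint ligand PD-L1, at r = -0.36 (permutation test, adjusted p = 0.0978). The panel has a second row named PD-L1, chosen here after its value was seen, whose r with CD70 was -0.24. In each of the 8 gene groups CD70 had 0 positive calls, and its median r ran from -0.15 for other costimulation genes to -0.01 for inhibitory and regulatory genes. The 4 myeloid and chemokine genes CXCL2, IL8, CCL2 and IL6 lay between -0.21 and -0.05 and those of B, natural killer, plasmacytoid dendritic and endothelial cells between -0.23 and -0.0047.

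**Figure D4:**
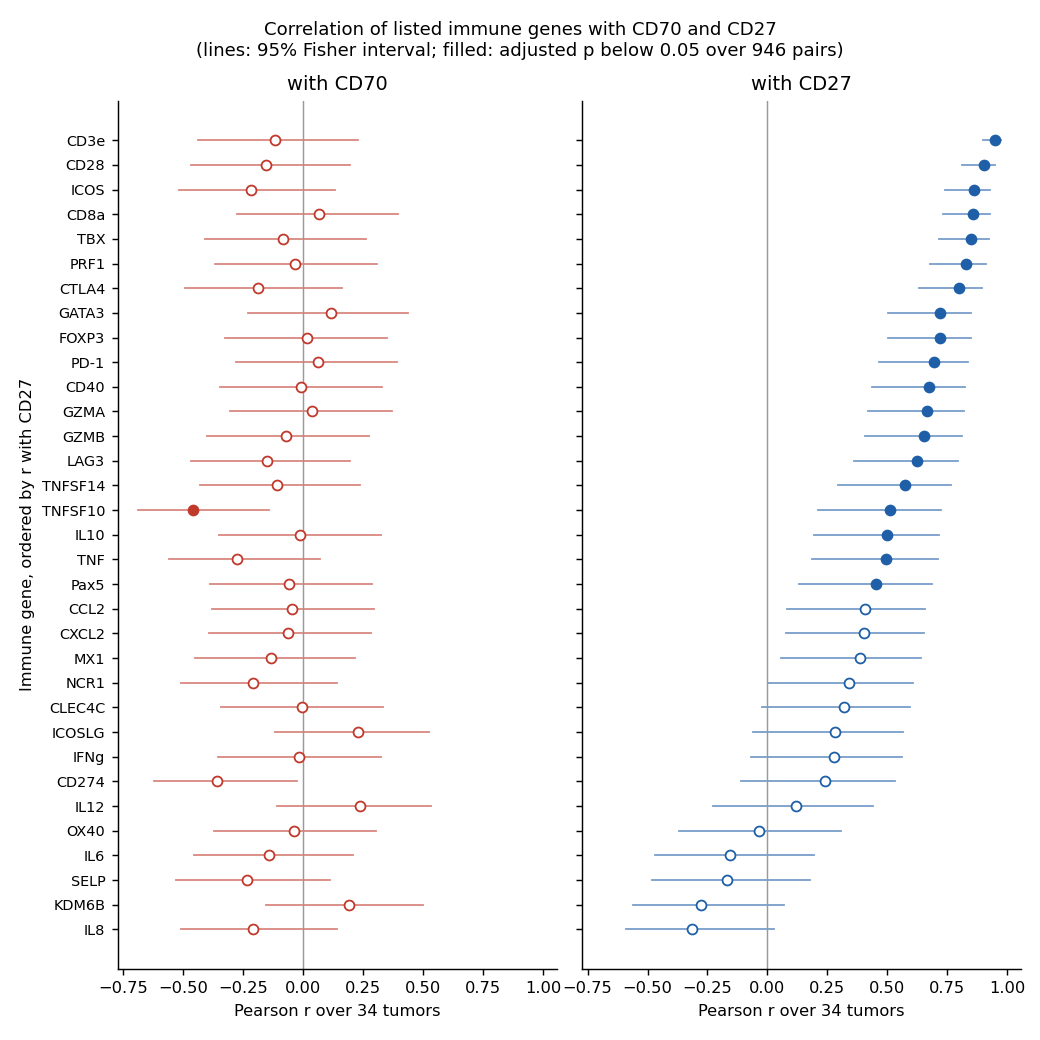
Pearson r over 34 tumors between CD70 (left) or CD27 (right) and named immune genes, ordered by r with CD27. Lines are 95% Fisher intervals and filled points passed an adjusted p below 0.05 over 946 pairs. For CD27, r runs from -0.31 for IL8 to 0.95 for CD3e, and for CD70 the points lie between -0.46 for TNFSF10 and 0.24 for IL12, with TNFSF10 as the filled point.

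Once CD3e was regressed out of every gene, nearly all relations of CD27 fell below the threshold. CD28, which had r = 0.90 before, had r = 0.25, ICOS had 0.18, CD8a had 0.06 and TBX had -0.08. PRF1 was the 1 of 42 genes that still passed, at r = 0.63 (95% interval 0.36 to 0.80, permutation test, adjusted p = 0.00395), beside 4.65% of the 903 remaining pairs with a called positive r. Its r was 0.63 (permutation test, adjusted p = 0.00691) without the tumors of patients 33 and 34 and 0.60 (permutation test, adjusted p = 0.00903) on the equal-median scale. What remained of CD27 is given by control ratio, with no test between the ratio groups and no share over other genes. All 7 tumors of the high ratio had more CD27 than their CD3e predicted, by 0.14 to 0.99, against 11 of 27 of the low ratio, and PRF1 lay above its prediction in 5 of 7 and in 10 of 27. The r of these residuals was 0.71 in the high-ratio and 0.52 in the low-ratio tumors. With the fit on CD3e made within the low ratio alone, r was 0.49 and did not pass (permutation test, adjusted p = 0.0982). CD70 passed with 0 of 42 genes after this step (3 genes at an unadjusted permutation p under 0.05). Between CD70 and CD27 r was then 0.19 (permutation test, adjusted p = 0.545), and 0.48 with the fit made within the 27 tumors of the low ratio (permutation test, p = 0.0118, adjusted p = 0.112).

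**Figure D5:**
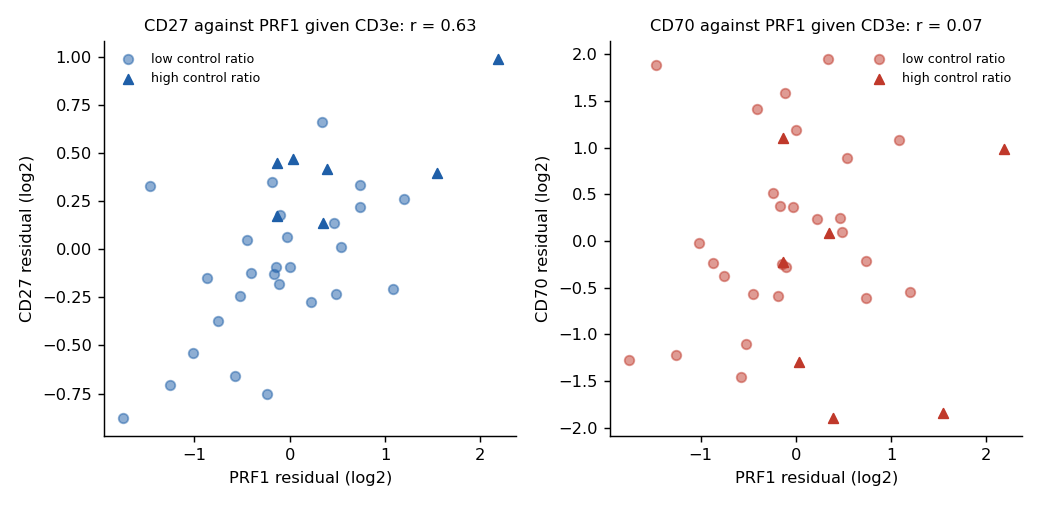
What remains of CD27 (left) and CD70 (right) after the straight-line fit on CD3e, in log2 units, against what remains of PRF1, with 1 point per tumor (circles for the low and triangles for the high control ratio). CD27 and PRF1 rise together (r = 0.63) with all 7 triangles above 0, and CD70 and PRF1 do not (r = 0.07).

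The difference between genes within a sample cancels the scaling of that sample. CD27 minus CD3e varied little among tumors, from -3.34 to -1.30 with an SD of 0.44 (n = 34), and was -2.56 and -1.79 in the mucosa samples, inside the tumor range. The tumor mean was lower than the mucosa mean by 0.24 (exact permutation test, two-sided, p = 0.432). CD70 minus CD27 varied far more, from -3.50 (patient 33) to 3.25 (patient 17) with an SD of 1.72 (n = 34), and was -1.76 and -0.15 in mucosa. The tumor mean was higher by 1.48 (exact permutation test, two-sided, p = 0.257), and 22 tumors lay above both mucosa samples, 7 between them and 5 below. CD70 minus CD3e was higher in tumors by 1.24 (exact permutation test, two-sided, p = 0.363), with an SD of 1.83 among tumors. These values depended on the mucosa sample used. Without that of patient 8 and without that of patient 9, CD27 minus CD3e was -0.63 and 0.14, CD70 minus CD27 was 0.68 and 2.29, and CD70 minus CD3e was 0.04 and 2.43. None of these 3 differences between tissues passed (adjusted p = 0.432 for each of the 3 exact tests).

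Neither gene passed the test between tumors of the low and the high control ratio. The low group was higher by 0.44 for CD70 (standard error 0.43, limma adjusted p = 0.459) and by 0.62 for CD27 (standard error 0.53, limma adjusted p = 0.41), in a comparison where 2.27% of the immune genes were called. The median of the other immune genes moved with CD27 (r = 0.89, permutation test, adjusted p = 6e-05 over 6 technical relations) and not with CD70 (r = -0.20, permutation test, adjusted p = 0.377). The log2 total count had r = 0.17 with CD27 and -0.27 with CD70, and neither passed. The scale factor of the sample had rho = -0.42 with CD27 (permutation test, adjusted p = 0.0411) but r = -0.21 (permutation test, adjusted p = 0.377). The part of these measures in the correlations was not tested beyond the rescaled, within-sample and within-group values above.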

How the data were processed

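RNA from 34 tumors and 2 mucosa samples was counted with nCounter probes, and the authors used nSolver. The deposited gene values are signal scaled by the authors to an equal geometric mean of 4 housekeeping genes (ALAS1, GUSB, RPL30 and SDHA). The control rows are unscaled. Dividing each sample by its own factor returned whole counts for all 1728 gene values (within 0.01), and these are the counts and depths given. Intervals on counts cover counting error only. Members and gene lists were chosen with earlier results of these data known. Genes named were CD70, CD27, CD3e, for each member the 5 highest and 2 lowest r, and all list members.

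Values were log2-transformed with no pseudocount. Tumors were compared with mucosa by limma (3.58.1, under R 4.3.3), adjusted by Benjamini-Hochberg over 44 genes at a threshold of 0.05, and by exact permutation tests. Correlations over 34 tumors used 100000 permutations (Python 3.11.15, numpy 2.4.6, scipy 1.17.1), all orderings for the 7 tumors of the high control ratio, and adjustment over 946 pairs (903 with CD3e regressed out, 1892 when the 2 farthest tumors were left out, since these depend on the x gene). The scripts were tested on simulated data. The groups of control ratio were divided at 2.0. Alternatives were other scalings, pseudocounts of 1 and 20, filters on background, low values and depth, samples left out, and other tests. The methods give no test for these comparisons. Some genes are not reported here.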

Additional observations from a re-analysis of the deposited data

How the results depend on the processing

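The higher CD70 of tumors passed under all 14 alternatives, with log2 differences from 2.39 (equal medians) to 4.14. Without either mucosa sample it was 3.47 and 3.73. CD27 passed limma under 1 of 14, with the negative-control mean subtracted (2.40, limma adjusted p = 0.0454), and was 1.44 and 2.80 with a mucosa sample left out. The r of CD70 with CD27 changed sign in 4 of 14 settings, to 0.26 (high control ratio), 0.060 (without the tumors of patients 33 and 34, and without the 2 farthest) and 0.19 (CD3e regressed out), and passed in none. The r of CD70 with CD3e was 0.11 in the high control-ratio group and passed at -0.47 on equal medians. The r of CD27 with CD3e was 0.91 and no longer passed among the 7 tumors of the high ratio, where 0 of 946 pairs passed, and passed in the other 12 settings. The difference of these correlations was 0.80 there and did not pass. CD27 had 6 positive partners on equal medians, 0 in the high ratio group and 1 with CD3e regressed out, against 22, and 11 negative ones on equal medians and 1 without the 2 farthest tumors, against 0. CD70 had 2 positive and 2 negative partners on equal medians. Its 1 negative partner was lost, leaving 0, by Spearman rho, in the high group, in the low group, at a depth of at least 100000 counts, without the tumors of patients 33 and 34, in the low group without them, without the 2 farthest, and with CD3e regressed out. CD27 minus CD3e changed sign to 0.29 in the high group, and ran from -0.63 to 0.14 with a mucosa sample left out. CD70 minus CD27 ran from 0.68 to 2.29 and CD70 minus CD3e from 0.04 to 2.43. The cause of these changes was not tested, and neither was the effect of the smaller number of tumors in the subgroups.

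No paired analysis was possible because the labels do not show which samples share a dog. With 2 mucosa samples, 21 and 28 CD70 counts in them and no marker of tumor cells, the size of the tissue difference and the cells that carry CD70 are not resolved. The subtraction of negative controls, the regression on CD3e over all genes, the omission of patients 33 and 34, the settings of the difference of correlations and the within-sample differences were chosen after seeing the data.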
